A study of Drosophila melanogaster with 7 samples.

Results

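CP190 sites that carried no other insulator protein and had only moderate peak scores were the largest of the 4 classes that score and partners make of the interphase CP190 sites in Kc167, a cultured embryonic line of Drosophila melanogaster. They were chosen by the authors' own values: interphase CP190 peaks on chromosome arms 2L, 2R, 3L, 3R, 4 or X with a score below 1000 that shared no base with an interphase dCTCF peak, an interphase BEAF peak or a mitotic Su(Hw) peak. The rule was met by 4358 of the 10431 interphase CP190 peaks on these arms (41.8%). They are called CP190-alone sites here, which means without a call in these 3 lists. Their defining lack of partners and their scores are part of the rule and are given as a description.

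The study precipitated 4 insulator proteins from formaldehyde-fixed Kc cells that had been sorted by staining for histone H3 phosphorylated at serine 10 and for DNA. The mitotic libraries were for CP190, dCTCF, BEAF and Su(Hw), and the interphase libraries for CP190, dCTCF and BEAF. All came from the same untreated cell line, and each is represented by 1 library whose list of peaks from chromatin immunoprecipitation sequencing (ChIP-seq) was used, so differences between phases could not be checked in replicates or tested. Su(Hw) was read here in mitosis only, so sites with Su(Hw) in interphase alone could be among the 4358.

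CP190 is a BTB-domain zinc-finger protein of fly insulators. It is brought to many of its sites by DNA-binding insulator proteins, among them dCTCF, which is the homolog of vertebrate CTCF, the boundary element-associated factor BEAF, and Su(Hw), which binds the gypsy insulator. It is also known at promoters of active genes. During mitosis chromosomes condense and many chromatin proteins leave their sites, and the sorted mitotic libraries ask at which sites a protein is still found.

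The 7 lists held 40204 peaks, between 1829 for mitotic Su(Hw) and 11470 for interphase CP190. On the main arms there were 3759 mitotic CP190, 2237 mitotic dCTCF and 2432 mitotic BEAF peaks. Every list began at a score near 50, the highest score in any list was 3233.06, and no source used here says what the score is, so scores rank peaks within a list and do not compare binding between lists. The lists give no read numbers. The depth is therefore unknown, and a missing mitotic call is not evidence that CP190 had left the site. Intervals below are 95% Wilson intervals of a share, or Newcombe intervals of a difference of shares, and cover counting error only. Peaks are sites within 1 library and not replicates.

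The CP190-alone sites had a median interphase CP190 score of 144.25, with quartiles of 80.06 and 318.12, and a median width of 522 bp. Over all interphase CP190 peaks on the main arms the median score was 291.9 and the median width 600 bp. At the upper edge of the rule lay 3R 11808653 to 11810202, with an interphase CP190 score of 998.01, no call in any other list and a mitotic CP190 peak 113 bp away. Next was 3L 11700982 to 11701811, with a score of 996.06 in interphase and a mitotic CP190 peak scored 96.18. The first CP190 peaks just outside the rule, without a partner and at or above 1000, were X 8369804 to 8370518 (1000.09) and 3R 1580071 to 1581138 (1000.62), and neither had a mitotic call. All positions are those of the authors' lists, with sequence names of Drosophila genome release 5, printed 1-based on the reading that the listed starts count from 0, as in BED files. No header states this, so starts and widths could be off by 1 bp. Only a gene table of release 6 was at hand, so the sites were not assigned to genes, exons or promoters.

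Most CP190-alone sites were called in no mitotic list. No mitotic CP190, dCTCF or BEAF peak overlapped 3535 of the 4358 sites (81.1%, 79.9 to 82.2%), and at least 1 overlapped the other 823 (18.9%), where the share over all interphase CP190 peaks on the main arms was 47.3%. A mitotic CP190 peak overlapped 642 of them (14.7%, 13.7 to 15.8%), against 31.4% of all CP190 peaks, and with only mitotic peaks scored 100 or more the share was 7.89% (7.13 to 8.73%). Mitotic dCTCF was called at 205 sites (4.70%, 4.11 to 5.37%), against 16.1% of all CP190 peaks. Mitotic BEAF was called at 5 sites (0.115%, 0.049 to 0.268%), against 20.5% of all CP190 peaks. The mitotic lists of CP190, dCTCF and BEAF played no part in the rule, so these shares are readouts of the sites, although those of dCTCF and BEAF are lists of proteins whose interphase peaks the rule removed. At weaker CP190 sites with BEAF only, for comparison, mitotic BEAF was called at 51.8% (49.8 to 53.9%) of 2321 sites.

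A CP190-alone site with mitotic dCTCF had mitotic CP190 about as often as CP190-alone sites in general. Of the 205 sites with mitotic dCTCF, 27 also had mitotic CP190 (13.2%, 9.21 to 18.5%), where the share of all CP190-alone sites was 14.7%. Over all interphase CP190 peaks on the main arms, 772 of the 1680 with mitotic dCTCF also had mitotic CP190 (46.0%, 43.6 to 48.3%), against 31.4% of all such peaks. Both proteins were called at 27 CP190-alone sites, mitotic CP190 without dCTCF or BEAF at 613 and mitotic dCTCF without CP190 or BEAF at 178. The median interphase scores of these classes were 166.94, 154.23 and 132.165, close to the 143.72 of sites with no mitotic call. Their median widths were 574, 584 and 528 bp, against 511 bp for sites with no mitotic call.

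**Figure D1:**
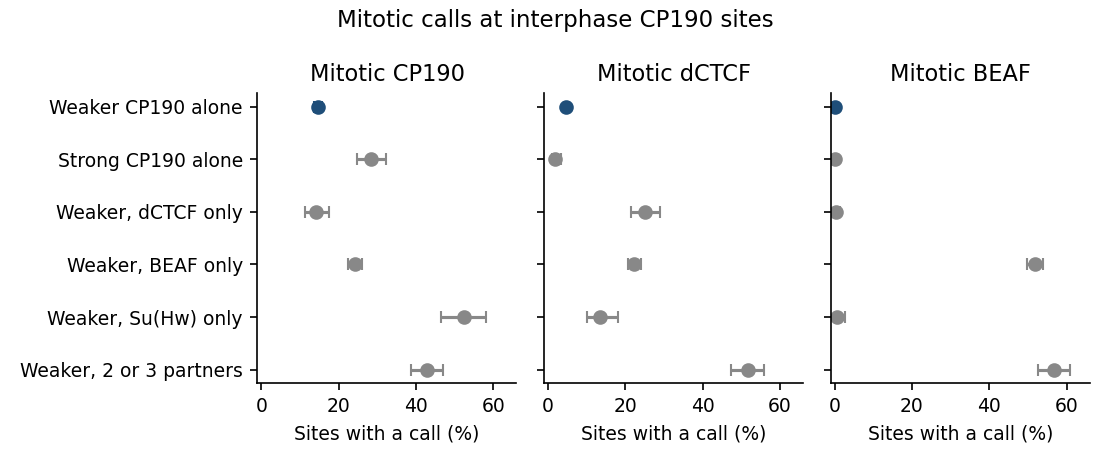
Share of interphase CP190 sites on the main arms (x axis, %) that overlapped a mitotic CP190, dCTCF or BEAF peak, for 4358 weaker sites alone, 557 strong sites alone (score 1000 or more) and weaker sites with 1 or more partners; points are shares and bars 95% Wilson intervals, 1 library per list. CP190-alone sites stood at 14.7% for CP190, close to the 14.1% of weaker sites with dCTCF only, and at 4.70% and 0.115% for dCTCF and BEAF. The shares pool all scores, and the difference from sites with dCTCF only changed sign with score. It was 8.78 points for scores from 50 to 100 and -16.6 points from 500 to 1000.

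The share of CP190-alone sites with mitotic CP190 was nearly level over the whole range of scores. It was 13.1% (11.5 to 14.8%) of 1554 sites with scores from 50 to 100 and 16.0% (13.9 to 18.3%) of 1108 sites from 100 to 200. From 200 to 500 it was 15.5% (13.5 to 17.7%) of 1119 sites, and from 500 to 1000 it was 15.4% (12.7 to 18.6%) of 577 sites. The intervals of all 4 classes overlapped. Sites with a mitotic CP190 peak had a median interphase score of 154.63 and those without one a median of 142.16.

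Weaker CP190 sites that carried a partner behaved differently, and for all partners together the gap was wider at higher scores. There were 3629 of these, with the same ceiling of 1000 on the CP190 score, a median score of 242.53 and a median width of 586 bp. Pooled, mitotic CP190 was called at 14.7% of CP190-alone sites and at 27.7% (26.3 to 29.2%) of sites with a partner, a difference of -13.0 percentage points (-14.8 to -11.2). From 50 to 100 the shares were 13.1% and 13.9%, a difference of -0.787 points whose interval (-3.93 to 2.14) held 0. From 100 to 200 they were 16.0% and 21.4% (-5.46 points, -9.00 to -1.99), and without the sites that carried mitotic Su(Hw) that difference was -0.736 points (-4.21 to 2.63). From 200 to 500 they were 15.5% and 28.9% (-13.5 points, -16.8 to -10.1). From 500 to 1000 they were 15.4% and 43.9% (-28.5 points, -32.8 to -23.9). With mitotic peaks scored 100 or more the pooled difference was -7.48 points and those of the 4 classes were -0.560, -2.57 (-5.25 to 0.0116), -7.37 and -14.9 points. At widths from 500 to 800 bp that of the class from 100 to 200 was -2.66 points (-7.78 to 2.36). The Su(Hw) list is itself mitotic. Without the sites that carried mitotic Su(Hw), the pooled difference was -9.23 points. Those of the 4 classes were then 2.09 (-0.963 to 4.87), -0.736, -9.33 and -26.1 points.

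The same order held on each of the 5 large arms for scores from 500 to 1000. There the share of CP190-alone sites with mitotic CP190 lay between 12.2% on 3R and 18.5% on 2R, while that of sites with a partner was highest on 2L, at 66 of 132 sites, and lay between 38.1% on 3R and 49.2% on 2R on the others. The differences ran from -33.8 points on 2L to -25.8 points on 3R, and no interval held 0. For scores from 200 to 500 the difference was between -20.9 points on X and -8.92 points on 2R, and no interval held 0. For scores from 100 to 200 it was between -9.61 points on 3L and -0.109 points on 3R, and only the interval of 3L left out 0. For scores from 50 to 100 the difference was between -6.30 and 1.21 points, and the interval of every arm held 0. The arms are parts of the same libraries and not replicates.

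**Figure D2:**
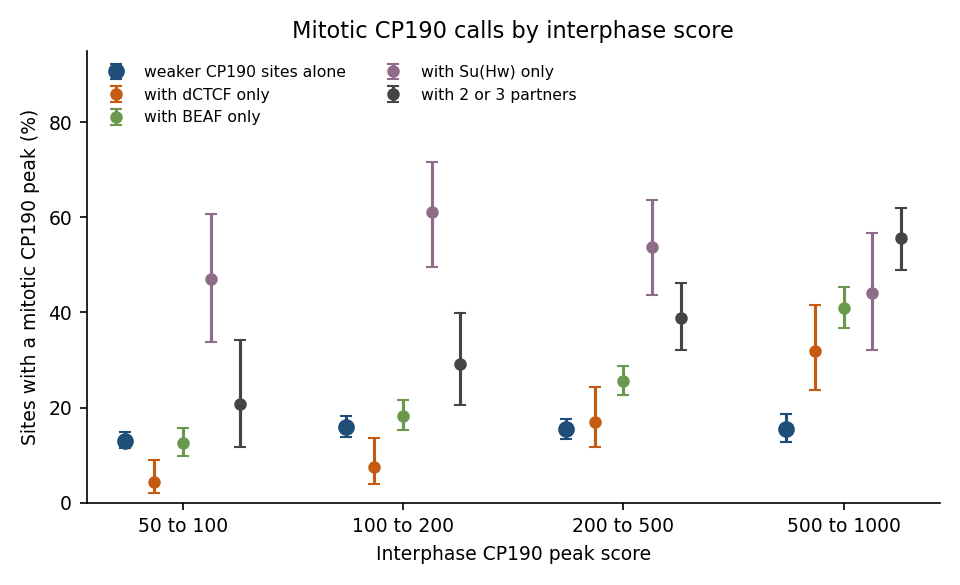
Share of weaker CP190 sites on the main arms with a mitotic CP190 peak (y axis, %) in 4 classes of interphase CP190 score (x axis), for sites alone and for sites with dCTCF only, BEAF only, Su(Hw) only or 2 or 3 partners; points are shares and bars 95% Wilson intervals. Sites alone stayed between 13.1 and 16.0%, while sites with BEAF only ran from 12.6 to 41.0%.

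The contrast was not the same for each partner. Weaker CP190 sites with dCTCF only had mitotic CP190 in 14.1% (11.4 to 17.5%) of 495 cases, and CP190-alone sites were 0.590 points higher, with an interval from -2.91 to 3.59. That pooled value joined classes that differed in sign. CP190-alone sites were 8.78 points higher (3.77 to 11.7) for scores from 50 to 100 and 8.47 points higher (2.00 to 12.7) from 100 to 200. The difference was -1.58 points (-9.08 to 4.27) from 200 to 500 and -16.6 points (-26.6 to -7.66) from 500 to 1000. With BEAF only, 24.3% (22.6 to 26.0%) of 2321 sites had mitotic CP190. The difference from CP190-alone sites was 0.486 points (-3.13 to 3.68) for scores from 50 to 100 and -25.5 points (-30.8 to -20.2) from 500 to 1000.

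Sites with Su(Hw) only stood highest for a single partner, with mitotic CP190 at 52.4% (46.5 to 58.2%) of 273 sites. By score class from low to high the shares were 46.9% (33.7 to 60.6%), 61.1%, 53.8% and 44.1% (32.2 to 56.7%), and the differences of CP190-alone sites from them were -33.9, -45.1, -38.3 and -28.6 points, so for Su(Hw) the gap was not wider at higher scores. That Su(Hw) list is itself mitotic, unlike the dCTCF and BEAF lists that defined the other partners, so these shares are from the same phase and cannot be set beside the others as like for like.

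Strong CP190 sites without partners, those with scores of 1000 or more, had mitotic CP190 more often than the CP190-alone sites below 1000. The shares were 14.7% of 4358 weaker sites and 28.4% (24.8 to 32.2%) of 557 strong ones, a difference of -13.6 points (-17.6 to -9.89). In both sets limited to widths from 500 to 800 bp the difference was -7.09 points (-12.5 to -2.31), with a reciprocal overlap of 50% it was -7.62 points (-11.3 to -4.27), and with mitotic peaks scored 100 or more it was -8.26 points (-11.6 to -5.32). The threshold of 1000 itself was not where the share changed. It was 18.2% (13.2 to 24.7%) of 170 sites with scores from 800 to 1000 and 14.2% (9.16 to 21.3%) of 127 sites from 1000 to 1200. It was called at 20 of 133 sites (9.95 to 22.1%) from 1200 to 1500, and at 28.8% (22.4 to 36.2%) of 163 sites from 1500 to 2000 and 48.5% (39.0 to 58.1%) of 101 sites from 2000 to 3000. These narrower classes were chosen after the values had been seen.

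**Figure D3:**
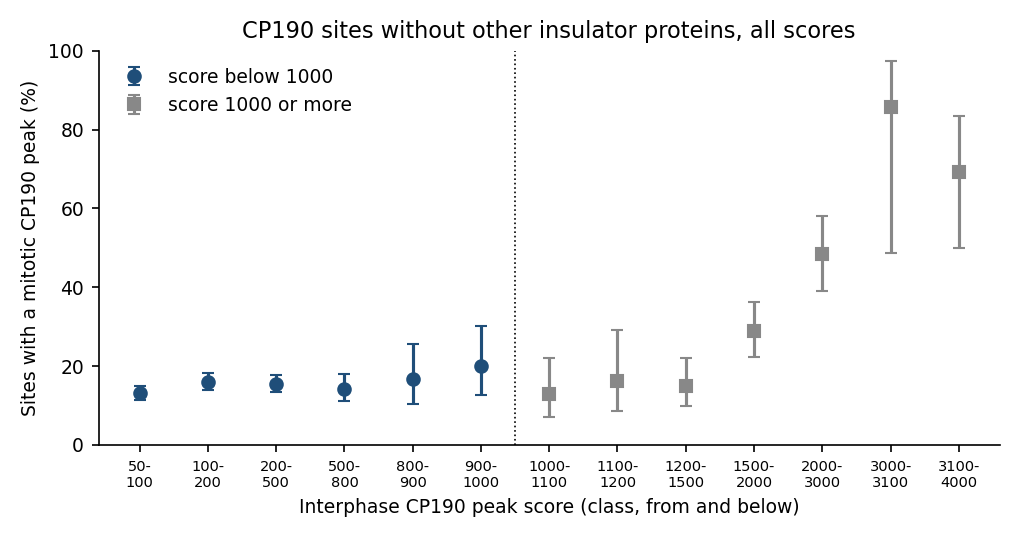
Share of CP190 sites without other insulator proteins that had a mitotic CP190 peak (y axis, %) by class of interphase CP190 score (x axis, classes of unequal span), below the threshold of 1000 (circles) and at or above it (squares); bars are 95% Wilson intervals. The share was under that of the class from 1500 to 2000 (28.8%) in every class below 1500.

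Width separated the CP190-alone sites where score did not. A mitotic CP190 peak overlapped 6.92% (5.27 to 9.03%) of 708 sites narrower than 400 bp, 14.2% (12.3 to 16.4%) of 1097 sites from 500 to 600 bp and 27.0% (22.8 to 31.7%) of 374 sites of 800 bp or more. A wider region has more bases in which to meet another peak. When 400 bp around each midpoint was used in place of the whole peak, the same classes had 7.49%, 14.2% and 26.5%, in the same order. Width and score were linked across sites (Spearman rho 0.54 over 4358 sites of 1 library).

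Within single score classes the widest sites again had the call most often, and below 800 bp the shares were less ordered in the highest score class. For scores from 50 to 100 the share was 6.53% (4.59 to 9.22%) below 400 bp and 28.9% (20.3 to 39.4%) of 83 sites from 600 to 800 bp. For scores from 200 to 500 it was 7.89% (3.67 to 16.2%) below 400 bp and 19.8% (16.1 to 23.9%) from 600 to 800 bp. For scores from 500 to 1000 the share from 600 to 800 bp was 12.4% (8.82 to 17.1%), 2 of the 18 sites below 400 bp had the call, and of the 149 sites of 800 bp or more 22.8% (16.8 to 30.2%) had it. Among sites 600 to 800 bp wide, the lowest score class thus had the higher share, 28.9% against 12.4%, and the intervals did not overlap.

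**Figure D4:**
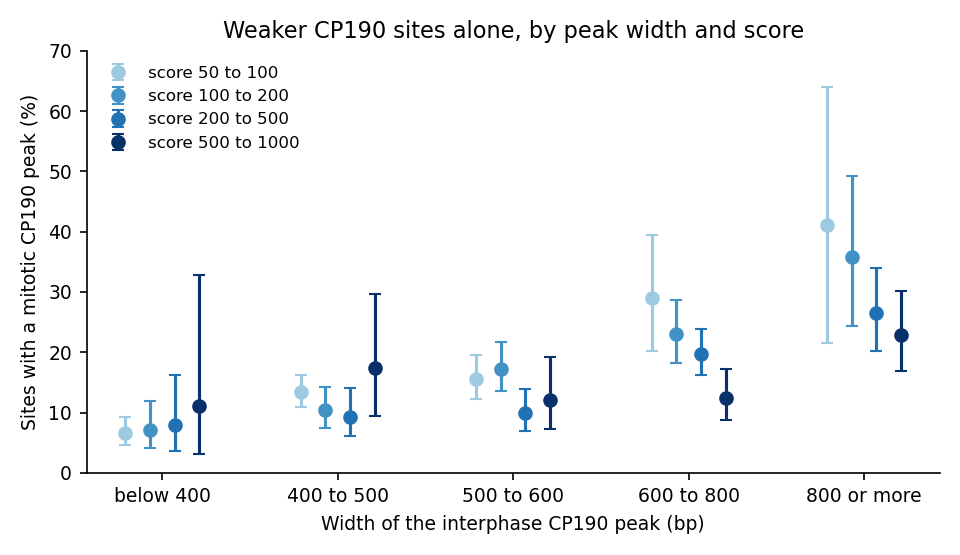
Share of CP190-alone sites with a mitotic CP190 peak (y axis, %) by width of the interphase CP190 peak (x axis, bp) in 4 classes of interphase score; bars are 95% Wilson intervals. For scores from 50 to 100 the share ran from 6.53% below 400 bp to 28.9% from 600 to 800 bp, while for scores from 500 to 1000 it was 11.1% and 12.4%, and 22.8% at 800 bp or more.

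Where CP190 was called in mitosis, it was called at the same place. The midpoint of the mitotic peak lay inside the CP190-alone site at 608 of 642 sites (94.7%, 92.7 to 96.2%). The midpoints of both peaks were a median of 38.5 bp apart. Among other sites with mitotic CP190, the midpoint lay inside at 93.6% of 1007 weaker sites with a partner. It did so at 100% of 158 strong sites alone. The median offsets in these sets were 57 and 59.75 bp. A midpoint inside the site was therefore not particular to CP190-alone sites. At 612 of the 642 CP190-alone sites (95.3%), the mitotic peak overlapped no other interphase CP190 peak. At 13 sites it also covered a CP190 peak outside the class, with a median midpoint offset of 434.5 bp. At the other 17 sites a mitotic peak covered more than 1 CP190-alone site. At 628 of the 642 sites (97.8%) the mitotic peak touched none of the dCTCF, BEAF or Su(Hw) peaks of the rule. The rule had removed every site that shared a base with those peaks. A high share was therefore largely set in advance for mitotic peaks at the same place, and it is given as a description. In the other direction, 641 of 3759 main-arm mitotic CP190 peaks lay at a CP190-alone site (17.1%, 15.9 to 18.3%).

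Mitotic scores at these sites were mostly low but reached high ranks. The median mitotic CP190 score over the 642 sites was 104.08, with quartiles of 71.28 and 172.21, and 344 sites (53.6%) scored 100 or more. The median of the whole mitotic CP190 list on these arms was 123.65. At weaker sites with a partner and strong sites alone that had mitotic CP190, the medians were 111.13 and 115.92, so low mitotic scores were not particular to CP190-alone sites. Across the 642 sites the mitotic and interphase CP190 scores were weakly related (Spearman rho 0.21).

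The highest mitotic score belonged to a pair of CP190-alone sites on 2R that shared 1 mitotic peak. The peak at 2R 9318161 to 9319892 scored 1391.4 in mitosis, and 102 of the 3759 mitotic CP190 peaks scored higher. Beneath it lay the interphase peaks 9318167 to 9318913, scored 694.52, and 9319007 to 9319863, scored 331.84, with the nearest partner peak, a BEAF peak, 6577 bp or more away. The site X 5795603 to 5796150 had scores of 1214.79 in mitosis and 610.53 in interphase, its own mitotic peak of 764 bp, and no partner peak within 5584 bp. These sites had CP190 as the only protein called in either phase.

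Of the other 3 sites among the 6 with the highest mitotic scores, 2R 5439489 to 5441308 had scores of 881.63 in mitosis and 572.19 in interphase, with its mitotic peak inside the site and the nearest partner 9999 bp away, and mitotic dCTCF was called there too (154.73). The remaining 2 were at the edge of a neighbouring site. The interphase peaks 2R 20897967 to 20898540 (51.82) and 3R 4806392 to 4806868 (52.07) overlapped mitotic CP190 peaks scored 1254.04 and 1207.05. In both cases the mitotic peak also covered a CP190 peak outside the class, and partner peaks lay 204 and 53 bp away.

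High-scoring CP190-alone sites were found with and without a mitotic call. Among the highest interphase scores with one, 2L 6410981 to 6411719 had a mitotic CP190 score of 203.71 and an interphase score of 968.97, and X 14643187 to 14643970 had 361.7 and 949.66. Their gaps to the nearest partner were 19080 and 21808 bp, and those of the other 4 of the 6 highest scoring sites with mitotic CP190 were 70, 1209, 2145 and 6096 bp. Without any mitotic call were, besides the 3R site scored 998.01, 2R 20187910 to 20188668 (interphase score 989.87), 2R 18293006 to 18294315 (983.75) and 3L 20192854 to 20193443 (981.08). The gaps of these last 3 to the nearest mitotic CP190 peak were 4411, 54051 and 1104 bp. Over the 3716 sites without mitotic CP190, that gap had a median of 11047 bp, and at 423 sites (11.4%) it was under 1000 bp.

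Mitotic calls were more frequent at CP190-alone sites closer to other insulator proteins, but the share with mitotic CP190 was little raised near dCTCF. The gap from a CP190-alone site to the nearest interphase dCTCF, interphase BEAF or mitotic Su(Hw) peak had a median of 4787 bp, with quartiles of 1480.25 and 12462.75 bp, and was under 1000 bp at 850 sites (19.5%). Mitotic dCTCF was called at 15.3% (11.3 to 20.4%) of the 242 sites with a partner closer than 200 bp, at 5.08% (4.04 to 6.37%) of 1378 sites with a gap of 1000 to 5000 bp and at 1.73% (0.941 to 3.15%) of 579 sites at 20000 bp or more. For mitotic CP190 the same classes had 17.8% (13.5 to 23.1%), 15.5% (13.6 to 17.5%) and 10.5% (8.29 to 13.3%). The sites nearest to partners had lower interphase scores, with medians of 106.68, 139.43 and 185.34 in these classes, while the median widths were 520, 530.5 and 511 bp.

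**Figure D5:**
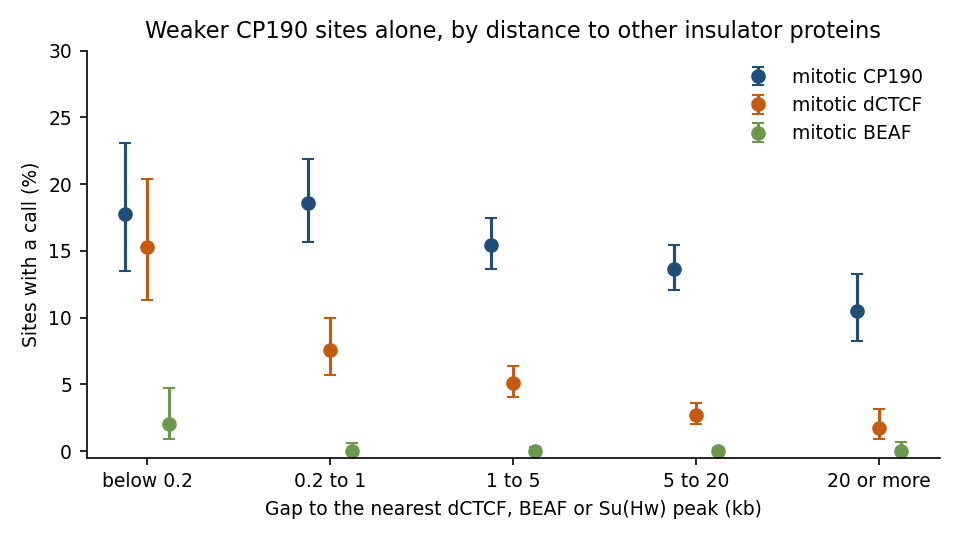
Share of CP190-alone sites with a mitotic CP190, dCTCF or BEAF peak (y axis, %) by the gap to the nearest interphase dCTCF, interphase BEAF or mitotic Su(Hw) peak (x axis, kb); bars are 95% Wilson intervals. Mitotic dCTCF ran from 15.3% of the closest sites to 1.73% of the farthest, and mitotic BEAF was called only among the closest.

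Mitotic dCTCF at CP190-alone sites was less well placed than mitotic CP190. The midpoint of the mitotic dCTCF peak lay inside the site at 84 of 205 sites (41.0%). These peaks had a median width of 898 bp, close to the 896 bp of the whole mitotic dCTCF list on these arms, and at 60 of the 205 sites (29.3%) the same mitotic peak also touched a partner peak. With a reciprocal overlap of 50% required, the share of CP190-alone sites with mitotic dCTCF was 1.70% in place of 4.70%. CP190-alone sites had mitotic dCTCF more often than the strong sites without partners, 4.70% against 1.80% (0.978 to 3.27%), a difference of 2.91 points (1.32 to 3.97). That difference was 0.441 points (-0.917 to 1.22) with the reciprocal overlap and 1.62 points with mitotic peaks scored 100 or more. For CP190-alone sites with no partner within 1000 bp it was 1.68 points, with the strong sites not limited in this way. Against weaker sites with a partner, where the share was 26.3% (24.9 to 27.8%), the difference was -21.6 points (-23.2 to -20.1). Some of those sites were chosen for an interphase dCTCF peak and the CP190-alone sites for lacking one, so this difference follows in part from the rule. By partner the share was 25.1% with dCTCF only, 22.2% with BEAF only, 13.6% with Su(Hw) only and 51.7% with 2 or 3 partners.

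The CP190-alone sites with mitotic dCTCF but no mitotic CP190 included some of the widest. At X 14057349 to 14058224, with an interphase CP190 score of 758.33, the mitotic dCTCF peak scored 1699.05, and an interphase dCTCF peak lay 18 bp away. The widest CP190-alone site of all, 2R 8708472 to 8711971, spanned 3500 bp with an interphase CP190 score of only 80.33 and a mitotic dCTCF score of 1047.08, and was 19021 bp from the nearest partner. The next widest, 3L 9569265 to 9572689 (3425 bp), had 227.53 for interphase CP190 and 286.19 for mitotic dCTCF. The gaps from these broad regions to the nearest mitotic CP190 peak were 44664 and 34301 bp.

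Mitotic BEAF was called at 5 CP190-alone sites, each within 200 bp of a partner. They were 3R 19747630 to 19748523, X 9473294 to 9473817, X 8801311 to 8801775, 2L 19134112 to 19134755 and 3L 3320043 to 3320392, with mitotic BEAF scores of 760.46, 486.82, 285.65, 1241 and 82.45. At the first 4 of them an interphase BEAF peak lay 13 to 46 bp away, and at 3L the nearest partner was a mitotic Su(Hw) peak 174 bp away. None of the 3508 sites without a partner within 1000 bp had mitotic BEAF, which allows a share of up to 0.0855%, and 486 of them (13.9%) had mitotic CP190. With a reciprocal overlap of 50%, mitotic BEAF was called at 0.0229% of all CP190-alone sites, and with 400 bp around midpoints at 0.0459%.

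CP190-alone sites had similar densities on the large arms and a lower one on chromosome 4. The density was between 35.5 sites per Mb on X and 38.9 on 2R over the 5 large arms, with the last peak on an arm standing for its end, and 15 sites lay on chromosome 4, at 11.1 per Mb. They were 29.4% (18.7 to 43.0%) of the 51 interphase CP190 peaks there. They made up 45.1% (42.9 to 47.4%) of the interphase CP190 peaks on 2L and 39.8% (37.7 to 41.9%) of those on 2R, with the other large arms between. Mitotic CP190 was called at 17.1% (14.7 to 19.8%) of the sites on 2R, 15.7% (13.4 to 18.4%) on X, 13.9% on 3R, 13.8% on 2L and 13.5% (11.4 to 15.9%) on 3L. The intervals of these arms overlapped. On chromosome 4 it was called at 2 of 15 sites.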

How the data were processed

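The authors deposited 1 peak list per library, with sequence name, start, end, a peak name beginning with MACS and a score. Bowtie 0.12.5 is the aligner that the submitters' processing notes name. Not given in the sources used here: the version and threshold of the peak caller, any control library, the genome build and read numbers. Chromatin was sonicated to 200 to 1000 bp, per the labels' protocols.

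The rule was applied to the interphase CP190 list, and overlap meant at least 1 bp. Gaps are bases between peak edges. Shares have 95% Wilson and differences 95% Newcombe intervals, with no test, since each group was 1 library. Limits for a count of 0 use 3 counts. Calculations used Python 3.11.15, NumPy 2.4.6 and pandas 2.3.3, and figures matplotlib 3.10.9. For 6 of 6 lists, bedtools 2.31.1 gave the same number of overlaps at every CP190 peak, and the code was tested on simulated data.

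The sites, classes and comparisons were chosen with earlier results of these data known. Named sites are taken from the 6 highest scoring of each mitotic class and of the sites without a mitotic call, the 6 with the highest mitotic CP190 score, the 6 widest and 3 on each side of the threshold. Alternatives tried were a reciprocal overlap, a minimum mitotic score, windows around midpoints, a lower score threshold and a minimum gap to partners. Alternatives added after seeing the data left out Su(Hw) partners, limited widths and dropped mitotic peaks shared with CP190 peaks outside the class. DNA sequence was not used here.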

Additional observations from a re-analysis of the deposited data

How the results depend on the processing

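The share of CP190-alone sites with mitotic CP190 was 14.7% and became 7.89% when mitotic peaks had to score at least 100, and 13.6% with a reciprocal overlap of 50%. For mitotic dCTCF the share of 4.70% became 1.70% with the reciprocal overlap, 2.16% with the minimum mitotic score and 3.48% without sites that had a partner within 1000 bp. For mitotic BEAF the share of 0.115% became 0.0229% with the reciprocal overlap, 0.0459% with 400 bp around midpoints and 0 without sites near a partner. The difference from strong sites alone, -13.6 points, became -7.62 with the reciprocal overlap, -8.26 with the minimum mitotic score and -7.09 at widths from 500 to 800 bp. The difference from weaker sites with a partner, -13.0 points, became -10.4, -7.48 and -10.6 under these settings and -9.23 without Su(Hw) partners. The cause of these shifts was not tested. Of 58 values under alternatives, 36 stayed within the interval of the main value, 22 lay outside it and no difference whose interval left out 0 changed sign. No paired analysis was possible because each group was 1 library, and no replicate could be left out. The unknown depth limits every statement about a site without a mitotic call.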

Other observations

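Most CP190-alone sites had no other CP190-alone site within 1000 bp, and whether they were more or less grouped than their density gives was not tested. Any other interphase CP190 peak was under 1000 bp away at 32.9% of them, against 25.7% of the strong sites alone and 36.3% of the weaker sites with a partner. When sites less than 1000 bp apart were joined, 3592 of the 4358 stood alone, 321 groups held 2, 36 groups held 3 and 4 groups held 4. Of the groups of 4, that at 3R 12058486 to 12061767 had mitotic CP190 at 3 of its sites, with interphase scores from 126.5 to 237.52. The groups at 3L 22315121 to 22319314 and 3R 26289485 to 26293286 had none, although their highest interphase scores were 782.6 and 574.78.

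The nearest interphase CP190 peak was itself a CP190-alone site for 49.4% of the CP190-alone sites, 51.0% of the strong sites alone and 28.7% of the weaker sites with a partner, while CP190-alone sites were 41.8% of all CP190 peaks on the main arms. These groups were seen after the values were known and were not tested.

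In 117 bins of 1 Mb on the large arms, the bin at the last peak of each arm left out, the number of CP190-alone sites had a median of 37, with quartiles of 31 and 44. The highest count was 66, on 2R from 9 to 10 Mb, where 141 interphase CP190 peaks lay and where the pair of sites with the highest mitotic CP190 score was found. The lowest was 6, on 3L from 23 to 24 Mb, where 15 CP190 peaks lay. CP190-alone sites were 46.8% of the CP190 peaks in the bin on 2R and 40.0% of those in the bin on 3L. Both shares were near the 41.8% over the main arms, but other bins were not. The share was 20.9% on X from 15 to 16 Mb (23 of 110 peaks). It was 61.5% on 2L from 9 to 10 Mb (56 of 91 peaks). How closely the counts followed the number of all CP190 peaks was not tested.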
